A study of Mus musculus with 9 samples.

Results

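The MAP kinase phosphatases examined here are the products of 9 genes, Dusp1, Dusp2, Dusp4, Dusp5, Dusp6, Dusp7, Dusp8, Dusp10 and Dusp16. Their chromatin was described through every peak of open chromatin whose centre lay in the body of 1 of these genes or within 50 kb of either end, which gave 188 of the 146,734 peaks of the data set. The loci held between 12 peaks (Dusp6) and 34 peaks (Dusp16). All 188 passed the filter on low values, a mean of at least 10 normalised read counts. The rule for the peaks uses position alone, but the family itself was chosen by what earlier results of these contrasts, the differences between hairpin and NTC libraries, had shown. The differences below are therefore a description of these loci and are not evidence about the family.

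Accessibility was assayed by ATAC-seq, in which a transposase inserts sequencing adapters into open DNA. The cells were D2A1-d, a breast carcinoma line of the mouse. They had been transduced with a non-targeting control hairpin (NTC, labelled WT) or with 1 of 2 short hairpin RNAs against Med4 (shMed4 #1 and shMed4 #4, both labelled Med4 Knockdown), and all were otherwise untreated. Each group held 3 libraries that the labels call biological replicates. Med4 encodes a subunit of Mediator, and the study's title concerns its part in metastatic dormancy. A hairpin lowers a transcript rather than deleting the gene, ATAC-seq does not measure how far it was lowered, and the labels do not say whether each replicate was a transduction of its own.

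MAP kinase phosphatases switch off MAP kinases by removing the phosphates from both the threonine and the tyrosine of the kinase's activation loop. They are usually sorted by place and target: DUSP1, DUSP2, DUSP4 and DUSP5 are nuclear enzymes whose genes are induced by mitogens or stress, DUSP6 and DUSP7 are cytoplasmic and prefer ERK, and DUSP8, DUSP10 and DUSP16 prefer the stress kinases JNK and p38. Many of these genes are transcribed in response to the pathway they restrain, which makes them feedback inhibitors, and DUSP6 is widely read as a marker of ERK activity.

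The promoters of 4 members are shown because their peaks bear on the results that follow and because they carry motifs of signal-responsive transcription. Each is the 250 bases upstream of a RefSeq transcript start on GRCm38.p6, 5′ to 3′ on the gene's strand. These 4 and the capitalised motifs were picked after the values had been seen. Capitals mark the CRE and a CRE core in Dusp1, the GC boxes and the E-box in Dusp2, the joined CArG boxes and a CRE core in Dusp5, and both CREs in Dusp8.
Dusp1: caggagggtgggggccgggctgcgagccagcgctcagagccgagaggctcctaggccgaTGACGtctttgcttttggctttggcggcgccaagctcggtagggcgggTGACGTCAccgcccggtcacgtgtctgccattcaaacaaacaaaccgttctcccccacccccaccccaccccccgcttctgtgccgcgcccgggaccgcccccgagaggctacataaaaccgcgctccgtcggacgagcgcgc
Dusp2: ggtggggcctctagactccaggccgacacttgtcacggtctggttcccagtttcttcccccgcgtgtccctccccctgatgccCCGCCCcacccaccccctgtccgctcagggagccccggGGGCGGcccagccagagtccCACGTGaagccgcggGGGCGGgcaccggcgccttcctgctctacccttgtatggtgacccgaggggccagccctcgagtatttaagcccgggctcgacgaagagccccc
Dusp5: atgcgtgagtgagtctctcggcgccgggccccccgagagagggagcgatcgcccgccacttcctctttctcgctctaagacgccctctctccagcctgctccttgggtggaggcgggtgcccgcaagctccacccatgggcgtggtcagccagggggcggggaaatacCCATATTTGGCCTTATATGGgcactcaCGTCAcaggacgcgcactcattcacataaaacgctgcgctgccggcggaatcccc
Dusp8: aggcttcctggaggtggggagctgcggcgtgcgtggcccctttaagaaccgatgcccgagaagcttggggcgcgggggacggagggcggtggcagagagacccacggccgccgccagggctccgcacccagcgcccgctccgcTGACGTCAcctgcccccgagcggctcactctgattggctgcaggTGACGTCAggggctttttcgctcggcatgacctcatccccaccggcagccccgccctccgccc

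The Dusp2 window, chr2:127335909-127336158 on the + strand, lay wholly inside the peak at the start of that gene. The Dusp5 window (chr19:53528895-53529144, + strand) and the Dusp8 window (chr7:142095285-142095534, − strand) were also covered whole by a peak. The Dusp1 window (chr17:26508473-26508722, − strand) overlapped no peak and lay between 2 of them. The motifs were searched on both strands in the 8 members that the promoter table holds (Dusp4 is the other one). The CRE (TGACGTCA), bound by CREB and ATF factors, matched in 2 of 8 members, Dusp1 and Dusp8, against 1.55% of all 32,851 promoter windows of the table. Its core TGACG, which lies within the CRE, matched in 4 of 8 members against 17.8%. The CArG box, the site of serum response factor, matched in 1 of 8, with 2 matches in Dusp5, against 1.47%. The E-box CACGTG matched in Dusp1 and Dusp2 against 6.02%, and the GC box GGGCGG in 6 of 8 members against 32.7%. AP-1 (TGANTCA) and ETS (CCGGAA) matched in 0 of 8 members, against 6.75% and 12.0% of all windows. A match is a string of letters and not a measured binding site.

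The starts of the 9 genes differed widely in accessibility in control cells. For each gene the peak that covers its annotated start was taken, or the nearest one centred within 1 kb, and because all peaks have the same width their levels can be compared between genes. Values are normalised read counts per peak, given as mean ± SD with n = 3. In NTC, Dusp10 had the highest start peak (5292 ± 109), followed by Dusp6 (4188 ± 131). Dusp1 (2524 ± 47.2), Dusp4 (2481 ± 127) and Dusp5 (2374 ± 25.5) lay close together, and within this trio the libraries of neighbouring genes overlapped. Dusp8 (868 ± 35.0) and Dusp7 (386 ± 38.2) were lower. Dusp2 (117 ± 16.5) and Dusp16 (95.0 ± 4.4) were lowest and overlapped. The places of Dusp7 and Dusp16 depend on the peak taken. The Dusp7 peak lies just inside the gene without covering its start, and a stronger peak lies upstream. The Dusp16 peak is at the outer end of the gene, and the peak over its RefSeq promoter, within the gene, was stronger. Both stronger peaks are given below. Over the 10,428 tested gene-start peaks of all protein-coding genes the NTC median was 1177, so Dusp10 stood at percentile 98.9 and Dusp2 at percentile 8.52.

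The start of Dusp2 was the one gene start of the family that was called higher. Dusp2 encodes a nuclear phosphatase of ERK and p38 first known from activated lymphocytes. Its start peak, chr2:127335844-127336345, held 120.3, 131 and 99.0 normalised read counts in the NTC libraries, 486, 502 and 541 with shMed4 #1, and 552, 558 and 524 with shMed4 #4. Every hairpin library thus lay well above every control library, and the hairpins overlapped each other. The log2 difference of both hairpins from NTC was 2.17 (SE 0.08, limma), a 4.50-fold rise, with 2.12 for #1 and 2.22 for #4. Of all 10,428 gene-start peaks, 62 had a log2 difference at least as high. That rank does not allow for level, and large rises were commoner in low peaks. Rises of at least 2-fold were called in 9.86% of all tested peaks under 200 in NTC. Among those of at least 1000 the share was 0.09%. The start nevertheless remained in the lower part of the range, moving from percentile 8.52 in NTC to percentile 24.5 with #1 and 26.1 with #4. All gene starts on chromosome 2 had a median log2 difference of -0.30 (815 peaks). The summed start peaks of 2 epithelial keratin genes, Krt18 and Krt14, moved with Dusp2, from 492 to 530.2 in NTC to 973 to 1034 with #1 and 981 to 1044 with #4. So did the fibroblast marker Thy1, from 101 ± 13.9 to 183 ± 19.6 and 233 ± 21.8 (1.03, SE 0.11). The other fibroblast marker with a start peak, Col1a1, was higher in NTC (1398 ± 87.7) and was not called (0.01). The part of these markers in the result was not tested.

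**Figure D1:**
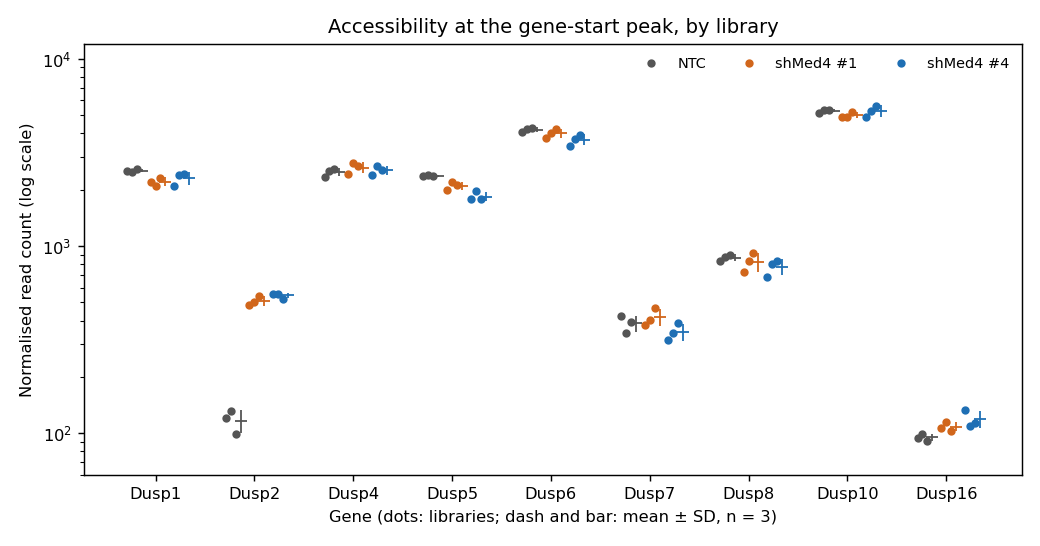
Normalised read count (log axis) at the gene-start peak of each MAP kinase phosphatase gene, with a dot per library and the mean ± SD (n = 3) beside each group. The Dusp2 dots of both hairpins (486 to 558) stand above the NTC dots (99.0 to 131), while those of the other genes stay near the control level.

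The other 8 gene starts had log2 differences between -0.27 and 0.25. Calls here and below are limma calls at a Benjamini-Hochberg adjusted p under 0.05 over all tested peaks. Dusp5, which encodes a nuclear phosphatase specific for ERK, fell at chr19:53528863-53529364. This peak held 2357, 2403 and 2361 in NTC, 1986, 2201 and 2121 with #1, and 1778, 1959 and 1778 with #4. The groups did not overlap NTC, and the log2 difference was -0.27 (SE 0.04). Dusp1, a nuclear phosphatase induced by growth factors and stress, fell at chr17:26507884-26508385 from 2524 ± 47.2 to 2207 ± 116 and 2298 ± 176 (-0.17, SE 0.05), again with all 6 hairpin libraries below NTC. The start peak of Dusp6, the cytoplasmic ERK phosphatase, was called lower at -0.12 (SE 0.04), but its groups overlapped. That call was lost without NTC replicate 2 (-0.12), without NTC replicate 3 (-0.10) and without shMed4 #1 replicate 1 (-0.10). The start peaks of Dusp4 (0.06), Dusp7 (-0.02), Dusp8 (-0.13), Dusp10 (-0.05) and Dusp16 (0.25) were not called. Without replicate 3 of #1 or of #4, Dusp8 was called lower (-0.17 and -0.15). The same held with equal totals (-0.14), with the replicate number as a block (-0.13) and when centred on peaks away from gene starts (-0.22). The Dusp10 peak also lies at an end of the gene 1700056E22Rik, and reads there cannot be assigned to either gene.

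In all, 1 of the 9 start peaks was called higher and 3 lower. Over all genes with a start peak, 9.85% were called higher, 2.05% at least 2-fold higher and 45.6% lower, and the median log2 difference was -0.11. Relative to that general drop at gene starts, centring the libraries on gene-start peaks gave 4 members higher and 1, Dusp5, lower, with Dusp6 at 0.0029, Dusp7 at 0.104 and Dusp10 at 0.078. Centring on peaks away from gene starts gave 1 higher and 5 lower, with Dusp4 at -0.035. These centrings moved the median of all tested peaks from -0.02 to 0.11 and to -0.11.

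The 3 genes whose start peak followed Dusp2 most closely over the 9 libraries were Snx32 (Pearson r 0.997), Nat3 (0.997) and Rasgef1b (0.996), of 10,374 gene-start peaks compared. Snx32 encodes a sorting nexin and Nat3 an arylamine N-acetyltransferase. Rasgef1b, which encodes a guanine nucleotide exchange factor for Ras-type GTPases, went from 32.8 ± 6.4 in NTC to 181 ± 14.7 with #1 and 223 ± 11.3 with #4. Nat3 went from 197 ± 15.1 to 598 ± 19.9 and 602 ± 25.8. With 3 groups and a step between NTC and both hairpins, a high r reflects mainly that shared step.

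Over the whole loci, 63 of the 188 peaks were called higher with shMed4 than in NTC, 41 were called lower and 84 were not called. That is 33.5% higher and 21.8% lower, against 27.9% and 26.2% of all 146,729 tested peaks, of which 54.1% were called either way. The median log2 difference was 0.03, against -0.02 over all tested peaks. At least 2-fold rises were seen in 9 peaks, against 5.97% of all peaks, and at least 2-fold falls in 0, against 0.96%. Of these rises, 7 were among the 58 member peaks under 200 in NTC, against 9.86% of all tested peaks under 200. For #1 alone, 60 peaks were higher and 34 lower (27.9% and 24.9% of all peaks). For #4 alone, 51 were higher and 37 lower (26.2% and 24.3% of all peaks). These comparisons share the NTC libraries. All 6 hairpin libraries lay above all 3 NTC libraries in 34 of the member peaks and below them in 18, against 19% and 16.5% of all tested peaks. Because the family was chosen with this contrast known, nothing is read from how these shares compare with those of all peaks. Centred on gene-start peaks the split was 86 higher and 14 lower, and centred on peaks away from gene starts it was 40 higher and 59 lower. Over all 146,729 tested peaks the same centrings gave 54,493 higher and 20,113 lower, and 32,909 higher and 53,470 lower.

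The loci did not move alike. At Dusp4, 13 of 22 peaks rose and 0 fell, at Dusp7 13 of 25 rose and 2 fell, and at Dusp10 8 of 16 rose and 2 fell. At Dusp5, 4 of 20 rose and 10 fell, at Dusp6 2 of 12 rose and 5 fell, and at Dusp2 3 of 17 rose and 6 fell. Dusp1 had 5 up and 5 down of 23, Dusp8 6 up and 2 down of 19, and Dusp16 9 up and 9 down of 34. These counts are of both hairpins together, and the hairpins could differ. At Dusp7, 14 peaks were higher and 1 lower with #1, against 6 and 5 with #4. At Dusp6, 2 were higher and 3 lower with #1, against 3 and 7 with #4. The chromosomes of these genes differed between the hairpins too. All peaks of chromosome 10, which holds Dusp6, had a median log2 difference of 0.05 with #1 and -0.08 with #4. For chromosome 9, which holds Dusp7, the medians were 0.08 and 0.04. Of the 188 peaks, 32 lay inside a member gene, and 15 of these rose and 5 fell. Another 35 lay inside a different protein-coding gene, and which gene such a peak serves was not measured.

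**Figure D2:**
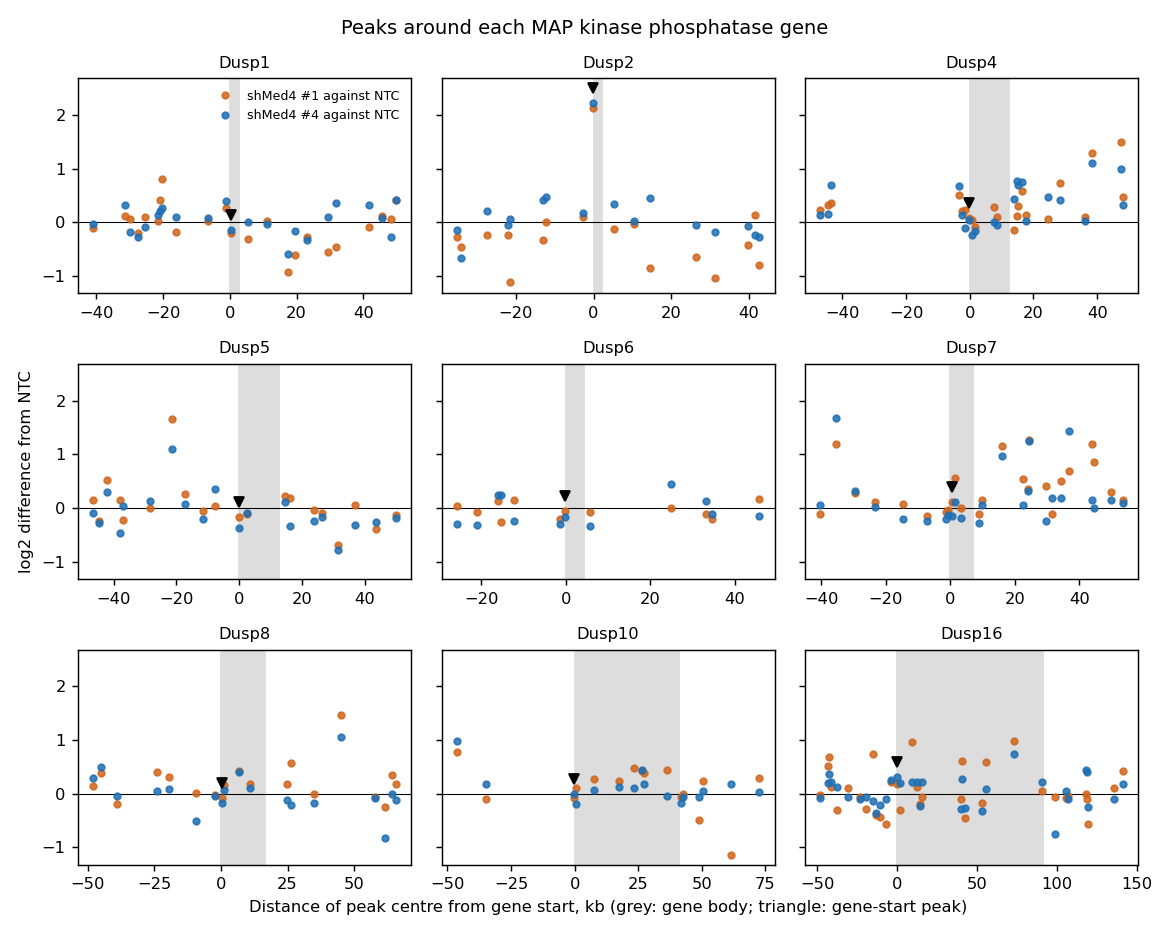
Log2 difference from NTC of every peak (orange, shMed4 #1; blue, shMed4 #4) against the distance of its centre from the gene start in kb, with the gene body in grey and the gene-start peak under the triangle. The Dusp2 start peak stands alone at a log2 difference above 2, and the Dusp4 panel has its higher points on the right, beyond the gene.

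Among the nuclear phosphatases, Dusp1 changed in opposite directions on the sides of its start. While the peak just inside the gene fell, the peak 1.16 kb upstream, chr17:26509383-26509884, held 1679, 1618 and 1621 in NTC, 1998, 2055 and 1854 with #1, and 2137, 2128 and 2240.2 with #4. All 6 hairpin libraries lay above NTC, with a log2 difference of 0.33 (SE 0.04), and the CRE shown above lies in the stretch between these 2 peaks. This upstream peak was named after its value was seen. The highest fold of the locus lay 20.3 kb upstream, at chr17:26528498-26528999, which went from 1246 ± 58.2 to 2191 ± 21.4 with #1 and 1496 ± 84.2 with #4 (0.54, SE 0.05). The lowest lay 17.3 kb past the start, at chr17:26490892-26491393, where the level went from 92.0 ± 3.4 to 48.4 ± 8.2 and 61.6 ± 13.5 (-0.76, SE 0.18). The peak with the highest NTC level, 21.4 kb upstream, was not called (3678 ± 101 in NTC, log2 difference 0.07). It was called higher without shMed4 #4 replicate 1 (0.10) and when centred on gene-start peaks (0.20).

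The other peaks around Dusp2 differed between the hairpins. Of the 17 peaks of the locus, the start included, 1 was higher and 9 were lower than NTC with #1, while 6 were higher and 1 was lower with #4. The strongest NTC peak of the locus, 2.69 kb upstream at chr2:127333223-127333724, held 2463 ± 25.6 in NTC, 2641 ± 201 with #1 and 2767 ± 165 with #4. It was called higher by only 0.13 (SE 0.05), and the call was lost without NTC replicate 3 (0.13) and without shMed4 #1 replicate 3 (0.10). The lowest fold was at chr2:127301860-127302361, 34.0 kb upstream, from 138 ± 11.3 to 101 ± 20.1 and 88.0 ± 21.2 (-0.56, SE 0.15). All peaks of chromosome 2 had a median log2 difference of -0.25 (11,557 peaks), lower than the -0.02 of all tested peaks. This median was -0.32 with #1 and -0.16 with #4, and 0.17 for #4 against #1. A difference between the hairpins in this direction was thus also seen over the whole chromosome.

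Dusp4 encodes a nuclear phosphatase of ERK and JNK that is lost or silenced in some human breast cancers. Its start peak, chr8:34807086-34807587, held 2337, 2529 and 2576 in NTC, 2427, 2775 and 2667 with #1, and 2403, 2669 and 2540.1 with #4, and the groups overlapped. The rises lay farther out. The largest was 47.4 kb from the start, at chr8:34854742-34855243 inside the neighbouring gene Tnks, which encodes the poly-ADP-ribosylating enzyme tankyrase. There the NTC libraries held 299, 316 and 297, the #1 libraries 919, 910.2 and 770.2, and the #4 libraries 593, 599 and 633. The log2 difference was 1.25 (SE 0.06), and #1 exceeded #4 in every library. A second peak in Tnks, chr8:34845816-34846317, went from 104 to 258 with #1 and 230.3 with #4 (1.20, SE 0.12). Closer to Dusp4, the peak 3.23 kb upstream went from 410.0 to 585 and 651 (0.59). These latter 2 peaks were named after their values were seen. The strand of Dusp4 is not in the tables used, and distances are counted from the end of the gene that holds the peak.

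Dusp5 combined a fall at its start with 1 strong rise upstream. Of the 20 peaks of the locus, 5 were higher and 5 lower with #1, against 2 and 9 with #4. The peak 21.5 kb upstream, chr19:53507373-53507874, held 159, 163 and 186 in NTC, 547, 555 and 503 with #1, and 362, 353 and 376 with #4. The 3 groups were fully separate, with a log2 difference from NTC of 1.38 (SE 0.08). The strongest NTC peak of the locus, 26.3 kb past the start, went from 3721 ± 16.7 to 3491 ± 38.2 and 3318 ± 214 (-0.13, SE 0.04). Taken alone, #4 was called lower there and #1 was not called. The lowest fold was at chr19:53560356-53560857, 31.5 kb past the start, from 136 ± 6.3 to 85.2 ± 15.3 and 78.8 ± 12.1 (-0.74, SE 0.15).

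Of the cytoplasmic ERK phosphatases, Dusp6 had log2 differences from -0.25 to 0.23 over its 12 peaks, of which 5 were called with #1 and 10 with #4. Its lowest fold was 1.34 kb upstream of the start, at chr10:99261641-99262142, from 1805 ± 45.8 to 1554 ± 51.6 and 1474 ± 105 (-0.25, SE 0.05). Its highest, 25.0 kb past the start at chr10:99287969-99288470, held 398, 415 and 433 in NTC, 425, 411 and 413 with #1, and 529, 620.3 and 556 with #4. Only the #4 libraries were high there, and the log2 difference between #4 and #1 was 0.44.

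Dusp7, whose product resembles that of Dusp6 in place and target, held 4 of the 9 rises of at least 2-fold. The largest lay 35.5 kb upstream, at chr9:106332830-106333331 inside Poc1a, a centriole protein gene. It held 120.3, 152 and 136 in NTC, 302, 342 and 289 with #1, and 415, 445 and 446 with #4 (1.43, SE 0.09). The 3 groups were again fully separate, here with #4 the highest. The other 3 started from 29.4 to 66.1 in NTC and lay 16.0 to 36.9 kb past the start. The peak 0.69 kb upstream of the Dusp7 start was stronger (2202 ± 65.6) than the one just inside the gene (386 ± 38.2), and neither was called. The strongest NTC peak of the locus, 9.68 kb past the start, was called higher by 0.11 (2998 ± 37.5 to 3342 ± 100 and 3117 ± 145). This small rise lost its call without any 1 of the NTC libraries, without #1 replicate 2 or 3 and without #4 replicate 2 (0.096 to 0.11). Its neighbour 8.92 kb past the start fell by 0.20 on the log2 scale (1315 ± 39.3 to 1215 ± 40.7 and 1081 ± 115).

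Among the phosphatases of the stress kinases, Dusp8 had its largest rise 45.1 kb past its start, at chr7:142050562-142051063 inside Mob2, a regulator of NDR kinases. This peak held 334, 285 and 272 in NTC, 816, 850.1 and 787 with #1, and 644, 587 and 617 with #4 (1.26, SE 0.07). A second peak in Mob2, 61.5 kb past the start, fell from 172 ± 14.6 to 144 ± 17.3 and 96.3 ± 4.1 (-0.54, SE 0.12), so the neighbour gene held a rise and a fall. The strongest NTC peak, inside Dusp8 itself, was called higher by 0.15 (2252 ± 75.0 to 2553 ± 29.6 and 2427 ± 50.3).

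Dusp10 kept its very open start while 8 of the 16 peaks of the locus were called higher and 2 lower. Taken alone, #1 had 9 higher and 2 lower, against 4 and 1 with #4. All peaks of chromosome 1, which holds Dusp10, had a median log2 difference of 0.13 with #1 and 0.03 with #4. The highest fold of the Dusp10 locus was at chr1:183987812-183988313, 46.3 kb upstream, a weak peak that went from 44.6 ± 2.6 to 79.0 ± 21.6 and 90.9 ± 24.3 (0.88, SE 0.19). At Dusp16 the highest fold lay inside the gene, 73.0 kb past the start at chr6:134733851-134734352. The NTC libraries held 489, 534 and 575 there, the #1 libraries 1080.4, 1008 and 1068, and the #4 libraries 929, 895 and 836. All hairpin libraries lay above NTC (0.86, SE 0.06). The lowest fold of the locus, in the neighbour Borcs5, was -0.41 (SE 0.15) and was lost without NTC replicate 1 (-0.26). The strongest NTC peak, at an end of Crebl2, was not called (2998 ± 27.5 to 2872 ± 174 and 2794 ± 124). Some alternatives called it lower, among them leaving out replicate 3 of #1 or of #4 (-0.11 and -0.095) and equal totals (-0.099). The promoter that the RefSeq table gives for Dusp16 belongs to a start within the gene, and the peak over it fell from 388 ± 53.3 to 339 ± 46.0 and 328 ± 37.5 (-0.21, SE 0.09).

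The hairpins differed at many of these peaks. Between them, 38 of 188 member peaks were higher with #4 and 58 were higher with #1, against 20.4% and 21.2% of all tested peaks. Among member peaks with a mean of at least 50, the largest difference in favour of #4 was at chr1:184095576-184096077, 61.4 kb past the Dusp10 start. It held 273, 268 and 246 in NTC, 118, 120.1 and 116 with #1, and 280.3, 301 and 307 with #4, so only #1 fell (log2 difference of #4 from #1 1.32, SE 0.11). At chr2:127350437-127350938, 14.5 kb past the Dusp2 start and inside Astl, an oocyte protease gene, the NTC level of 103 ± 30.1 lay between 55.2 ± 0.8 with #1 and 138 ± 11.2 with #4 (1.30, SE 0.18). The same order held 31.8 kb past the Dusp1 start, at chr17:26476462-26476963, with 368 ± 25.3 in NTC, 267 ± 29.1 with #1 and 472 ± 41.3 with #4 (0.82, SE 0.09). At the Astl peak and this one the hairpins moved to opposite sides of the control. Below that mean, 2 weak peaks of the Dusp2 locus also differed by more than the Dusp1 peak, by 1.17 (SE 0.28) and 0.86 (SE 0.27).

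In the other direction, 2 neighbouring peaks past Dusp7 were raised by #1. The first, chr9:106412191-106412692, held 404, 402 and 435 in NTC, 948, 989 and 906 with #1, and 497, 436 and 452 with #4 (#4 minus #1 -1.04, SE 0.07). The second, chr9:106412989-106413490, went from 830 ± 16.7 in NTC to 1508 ± 106 with #1 and stood at 830 ± 69.9 with #4 (-0.86, SE 0.06). At chr6:134821562-134822063, 14.7 kb upstream of Dusp16, the level was 336 ± 14.5 in NTC, 563 ± 44.6 with #1 and 305 ± 15.9 with #4 (-0.88, SE 0.08). In all 3, only the #1 libraries stood apart from NTC by more than the limma threshold.

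**Figure D3:**
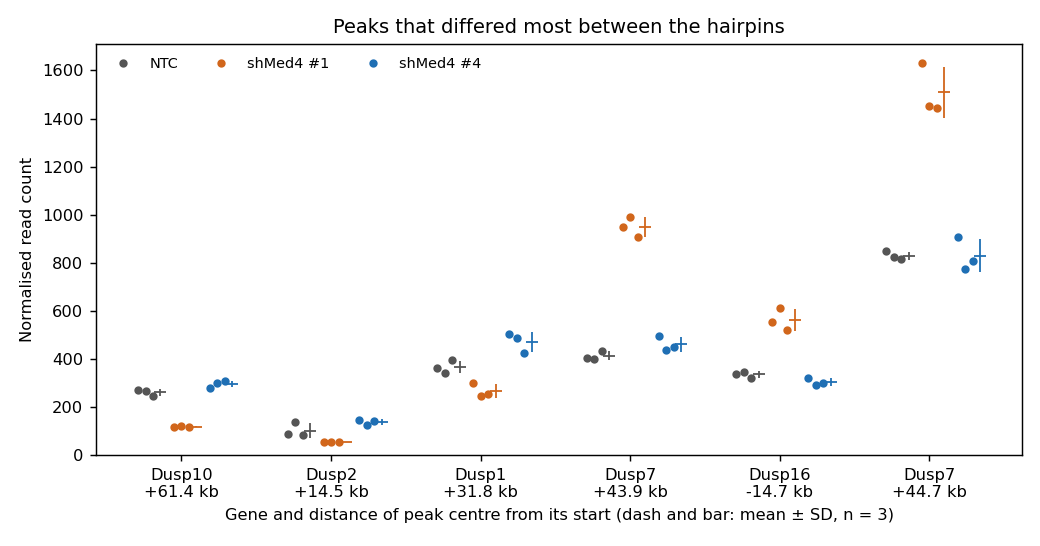
Normalised read count by library at the 6 member peaks with the largest differences between the hairpins, 3 in each direction, for peaks averaging 50 or more, labelled by gene and distance from its start, with mean ± SD (n = 3). In the 3 peaks on the left the shMed4 #1 libraries are the lowest (54.4 to 300.1), and in the 3 on the right they are the highest.

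Summed over each locus, Dusp4 was the one gene with all 6 hairpin libraries above all NTC libraries. Its 22 peaks summed to 15,281, 15,424 and 15,649 in NTC, 18,273, 18,637 and 18,697 with #1, and 17,394, 17,712 and 18,029 with #4. The mean was 20.0% higher with #1 and 14.6% higher with #4. With #1, the means of Dusp7 (15.3%), Dusp8 (15.2%), Dusp10 (11.1%) and Dusp16 (6.21%) were also above NTC, while with #4 they were 1.81%, 0.95%, 2.46% and 1.11% above. Relative to NTC, Dusp5 stood at -9.93% with #4 and 0.61% with #1, and Dusp6 at -10.8% and -1.60%. Dusp2 was 17.3% above NTC with #4 and 0.29% above with #1. Dusp1 was 4.06% above with #1 and 4.12% above with #4. These sums were not tested. The normalised totals over all peaks differed too, at 77.5 to 77.6 M in NTC, 78.7 to 80.1 M with #1 and 75.8 to 78.9 M with #4. Replicate 1 of #4 had the lowest total of all 9 libraries. The part of these totals in the locus sums was not tested. Without shMed4 #4 replicate 1, which had the lowest #4 sum at each of the 9 loci, 6 loci in place of 1 had every hairpin library above NTC. Without NTC replicate 2 there were 2 such loci, and without NTC replicate 1 there was 1 locus with every hairpin library below.

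**Figure D4:**
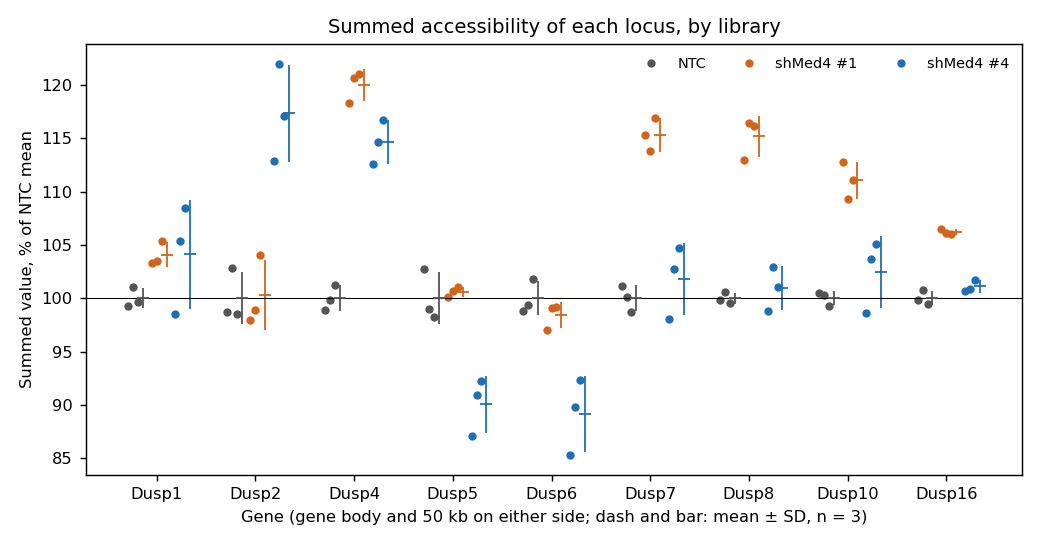
Sum of the normalised read counts over all peaks of each locus, as a percentage of the NTC mean, with a dot per library and the mean ± SD (n = 3). Only at Dusp4 do the libraries of both hairpins stand above every NTC library, at 20.0% and 14.6% above the NTC mean on average.

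The surrounding pathway was read at gene starts, over 57 other genes, of which 49 had a start peak. Of the 49, 3 were called higher, 22 lower and 24 not called, with a median log2 difference of -0.10, against 9.85% higher, 45.6% lower and a median of -0.11 over all gene starts. Among MAP kinases, 0 of 8 rose and 5 fell. Of the 3 with the lowest p, Mapk12, a p38 kinase, fell the most, from 183 ± 33.7 to 108 ± 13.6 and 118 ± 22.2 (-0.69, SE 0.13). It was followed by Mapk8, which encodes JNK, at -0.20 and Mapk7, which encodes ERK5, at -0.15. Mapk3, outside these 3, was called lower at -0.28, with 0.07 for #1 and -0.62 for #4. Among Ras, Raf and MAP kinase kinases, 1 of 10 rose and 3 fell. The fall was 0.23 for Map2k2, 0.22 for Nras and 0.17 for Map2k4 on the log2 scale.

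Of other inhibitors of the pathway 0 of 8 rose and 5 fell. The Sprouty gene Spry1 went from 466 ± 40.0 to 361 ± 24.6 and 366 ± 23.5 (log2 difference -0.36). The others that fell were the related Spred1 (-0.35) and Spred2 (-0.25), and Nf1 (-0.25) and Rasa1 (-0.18). Of genes induced by ERK 0 of 9 rose and 5 fell, among them Etv1, an ETS factor (924 ± 43.9 to 676 ± 42.6 and 795 ± 33.6, -0.33), the immediate early gene Ier2 (-0.23) and the ephrin receptor gene Epha2 (-0.22). Of the other dual-specificity phosphatases 2 of 14 rose and 4 fell. Dusp22, an atypical family member linked to JNK signalling, rose about as much as Dusp2. Its start peak held 44.4, 63.7 and 38.5 in NTC, 190.5, 199.6 and 191 with #1, and 202, 229 and 228 with #4 (2.09, SE 0.13). All hairpin libraries lay above NTC, again from a low control level. Dusp15 rose by 0.17 and Dusp9 fell by 0.22 on the log2 scale. Centred on gene-start peaks, 7 of the 49 were higher and 6 lower, and centred on peaks away from gene starts 1 was higher and 38 lower. These centrings moved the median of all tested peaks too, to 0.11 and to -0.11. Without NTC replicate 3, 14 in place of 22 were called lower, and without NTC replicate 2, 1 in place of 3 was called higher.

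Libraries held 44.8 to 98.9 M reads in peaks, and the median peak 110 to 247 reads, and the median NTC level of the member peaks was 408 normalised read counts against 184 over all tested peaks. Gene-start peaks were present for 2 of 6 epithelial markers (Krt18 and Krt14), 2 of 4 fibroblast markers (Col1a1 and Thy1), 1 of 4 endothelial markers (Cdh5) and 0 of 4 leukocyte markers. Of the epithelial markers that define carcinoma cells, Epcam, Cdh1, Krt8 and Cldn7 had no such peak, which does not show that they are silent. Summed over the markers with a peak, the fibroblast level, most of it from Col1a1 (1398 ± 87.7 in NTC, not called), was 1408 to 1606 in NTC, 1474 to 1571 with #1 and 1624 to 1836 with #4, and the endothelial level 81.8 to 90.4, 71.4 to 81.4 and 59.7 to 75.5.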

How the data were processed

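ATAC-seq values for 9 libraries were taken as deposited: signal per peak, which the file's name describes as read counts normalised by the authors with DESeq2. Trim Galore, BWA and MACS2, then featureCounts from Subread, are listed in the submitters' processing notes with no version, as are mm10 and GRCm38. How peaks were called from the libraries is not stated there, and coordinates are printed as deposited. In each library all values (100%) were whole multiples of 1 step within 0.001 of a read, from which the reads in peaks were computed. All peaks are 501 bp from start to end.

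Differences were tested with limma 3.58.1 in R 4.3.3 (lmFit and eBayes with trend) on log2(value + 1), for 146,729 peaks (those averaging at least 10), in 1 fit over 9 libraries. p-values were adjusted by Benjamini-Hochberg over all of them, and a call needs an adjusted p under 0.05. A log2 difference understates the change of a low peak because of the pseudocount of 1. NTC was compared with the average of the hairpins and with each hairpin alone, and #4 with #1. The p-values reflect only the spread of these libraries.

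Gene coordinates and promoters came from RefSeq tables on GRCm38.p6. Strand came from the promoters. For the 4,395 of 21,887 protein-coding genes without one, either end counted as a start. A start peak was found for 11,511 genes. The loci of the members overlap in no peak, but 35 member peaks lie inside another gene.

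The members, lists and comparisons were chosen with earlier results of these data known. The peaks named for each member were its start peak, its highest peak in NTC, and its highest and lowest log2 difference. Added to these were the 3 largest hairpin differences in each direction over all members. Both choices by difference took only peaks averaging at least 50. For each pathway list the 3 genes with the lowest p were named. Peaks said to be named after their values were seen fall outside this rule. The peak nearest inside the 50 kb limit was 49.7 kb from Dusp16 (log2 difference 0.31), and the nearest outside was 50.3 kb from Dusp8 (0.11). The test was also run on simulated data in which only a small share of the peaks was changed. In the libraries themselves 54.1% of all tested peaks were called, so that run does not check these calls. Values were handled with the R package data.table (1.17.8), Python 3.11.15, numpy 2.4.6 and pandas 2.3.3, and figures drawn with matplotlib 3.10.9.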

Additional observations from a re-analysis of the deposited data

Results flagged for a closer look

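The hairpins differed from each other, by the limma test of #4 against #1, at 17 of the 37 named peaks. By the same test, 20.4% of all tested peaks were higher with #4 and 21.2% were higher with #1. Some of the 17 were named because their hairpin differences were the largest, so their calls follow from that choice. The count of 17 is therefore a description and is not evidence about these loci. At the 17 peaks the directions of the hairpins from NTC were opposite at some and alike at others, and no cause was tested. Values are log2 differences of #4 minus #1.

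The difference was 1.32 at the Dusp10 peak 61.4 kb past the start, 1.30 at the Dusp2 peak inside Astl and 0.82 at the Dusp1 peak 31.8 kb past the start. It was -1.04 and -0.86 at the neighbouring peaks past Dusp7, and -0.88 at the peak upstream of Dusp16. Among the peaks with the highest fold of each locus, #4 was lower than #1 at Dusp1 (-0.55), at Dusp4 inside Tnks (-0.51), at Dusp5 (-0.55), at Dusp8 inside Mob2 (-0.41) and at Dusp16 (-0.25). It was higher at Dusp6 (0.44) and at Dusp7 inside Poc1a (0.49). At gene starts, Dusp5 (-0.19) and Dusp7 (-0.26) were lower with #4. The lowest peaks of the Dusp7 locus (-0.17) and of the Dusp8 locus (-0.57) were also lower with #4.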

How the results depend on the processing

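The Dusp2 start peak kept its call under all 18 alternatives, with log2 differences from 2.06 to 2.30. Of 690 alternative values for the 37 named peaks, 645 kept their direction and their side of the threshold, 20 lost the call, 16 gained it and 9 changed sign.

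Counts of called peaks were lower by construction where fewer peaks or larger changes were required. With at least 1.5-fold, shMed4 against NTC had 18 calls (15 higher, 3 lower), #1 had 28 (19, 9), #4 had 21 (16, 5) and #4 against #1 had 19 (11, 8). Within 10 kb the counts were 41 (27, 14), 34 (25, 9), 34 (19, 15) and 34 (9, 25). In gene bodies only they were 20 (15, 5), 17 (14, 3), 14 (9, 5) and 17 (2, 15).

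Centring was added after the data had been seen. On gene-start peaks it gave 14 lower for shMed4, 19 lower for #1, and 86 higher and 12 lower for #4. Over all 146,729 tested peaks it gave 20,113 lower for shMed4, 23,357 lower for #1, and 52,699 higher and 16,351 lower for #4. On peaks away from gene starts it gave 40 higher for shMed4, and 32 higher and 62 lower for #4. Over all tested peaks this second centring gave 32,909 higher for shMed4, and 30,629 higher and 51,203 lower for #4. Members with a start peak called higher went from 1 to 4 and lower from 3 to 1 in the first, and lower to 5 in the second. Pathway genes called went from 25 to 13 (7 higher, 6 lower) and to 39 (1 higher, 38 lower).

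Sign changed at the start peaks of Dusp6 (0.0029), Dusp7 (0.104) and Dusp10 (0.078), and at the strongest Dusp16 peak (0.043), when centred on gene-start peaks. It changed at the strongest Dusp1 peak (-0.018) and the Dusp4 start (-0.035) when centred on other peaks. With 1 library left out, the Dusp7 start ranged from -0.0999 (without NTC replicate 2) to 0.0424 (without NTC replicate 1), and it was also above 0 without replicate 1 of either hairpin (0.0108 and 0.0128). The main values of these peaks, apart from the Dusp6 start, were not called.

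Leaving out 1 library at a time gave 87 to 106 member peaks called for shMed4 (55 to 63 higher, 30 to 44 lower), 86 to 98 for #1, 69 to 91 for #4, and 82 to 95 for #4 against #1. Pathway genes called ranged from 16 to 30, with 1 to 3 higher and 14 to 28 lower. Loci with all hairpin sums above NTC ranged from 1 to 6, and below NTC from 0 to 1. The number above was 2 within 10 kb, 3 in gene bodies, 2 with TMM scaling and 2 with equal totals. The number below was 2 within 10 kb, 1 in gene bodies and 1 with equal totals.

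The replicate number as a block gave 106 member peaks called for shMed4 (63 higher, 43 lower). The deviations of same-numbered libraries correlated by -0.011 to 0.073, so the numbers are not taken to pair the libraries. The planned count tests (edgeR, DESeq2) were not run, because the deposited values were treated as normalised signal, and the planned comparison of protein sequences was not made because no protein table was used here. Depth limits the weak peaks: the Dusp16 start, at 95.0 in NTC, has an SE of 0.13.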
